A study of Myzus persicae with 4 samples.

Results

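The contigs described here are those whose probes gave the strongest signal in head RNA of the aphid Myzus persicae. A contig is a transcript sequence assembled from shorter reads, and the array carried 1 or 2 probes for each of 10295 contigs. The members were chosen from the measured signal itself. The log2 signals of both channels, as processed by the scanner software, were averaged over probes and over 3 replicates, and the 200 brightest contigs were taken. Of these, 55 were dropped because their log2 ratio of nicotine over control was at least 0.4 from 0 in all 3 replicates, whatever its direction. The remaining 145 contigs are the members, with 249 probes. Both their level and their diet ratio therefore served to choose them, and these values are given as a description. A probe's signal also depends on how well it binds and labels, which differs between probes, so the order of contigs is an order of probe signal. The 2 probes of one contig differed in mean signal by 2-fold or more in 717 of the 4139 contigs that have 2 (17.3%), so the name of most abundant transcripts holds for probe signal only.

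In most animal tissues a small number of genes supplies a large share of the messenger RNA. Genes of translation, energy metabolism, the cytoskeleton and secretion are usually among them. An aphid head holds the brain and eyes, the muscles that work the piercing mouthparts and the pump that draws up sap, and the cuticle around them. Salivary glands lie close to the head and release proteins into the plant during feeding. Nicotine, a tobacco alkaloid, acts on nicotinic acetylcholine receptors, which in insects carry fast excitatory signals in the central nervous system. The files do not pair contig numbers with genes, and 0 rows of the RefSeq table of 17052 genes for the assembly MPER_G0061.0 hold a contig name. What each member encodes is therefore not stated here, and defining markers of head tissue could not be looked up.

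Head RNA was compared between aphids that fed for 24 h on artificial diet with 100 µM nicotine and aphids that fed on the diet without it. All aphids had been moved to the diet from cabbage, so the controls shared that change of food. The labels give 3 biological replicates and a technical repeat array of replicate 2, and every array carried nicotine RNA in one dye and control RNA in the other. Nicotine RNA was in the green dye (Alexa Fluor 555) in replicates 1 and 3 and in the red dye (Alexa Fluor 647) in replicate 2, so diet and dye were not balanced. The labels name no clone, morph or age of the aphids and no number of heads per sample. They do not say that replicates came from separate cultures, so any p-value measures only the spread between these samples. In whole heads, fewer cells of a type and less RNA per cell cannot be told apart.

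The members, chosen for strong signal, were measured far above background, and these values describe that choice. The scanner software rated all 249 member probes as well above background on 4 of 4 arrays, in green and in red alike, against 72.7 to 82.4% of the probes of all contigs. For ranks 201 to 400 under the same ratio limit it was also 100% of probes on each array. The median member spot was between 774 and 1707 times its local background in green and between 1419 and 2332 times in red. No member spot (0) was marked as saturated or as an outlier. The brightest member spot reached 62.4% of the scanner's saturation value, in the red channel of replicate 1. The filter on dim probes therefore removed no member, and all 145 entered the fits.

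**Figure D1:**
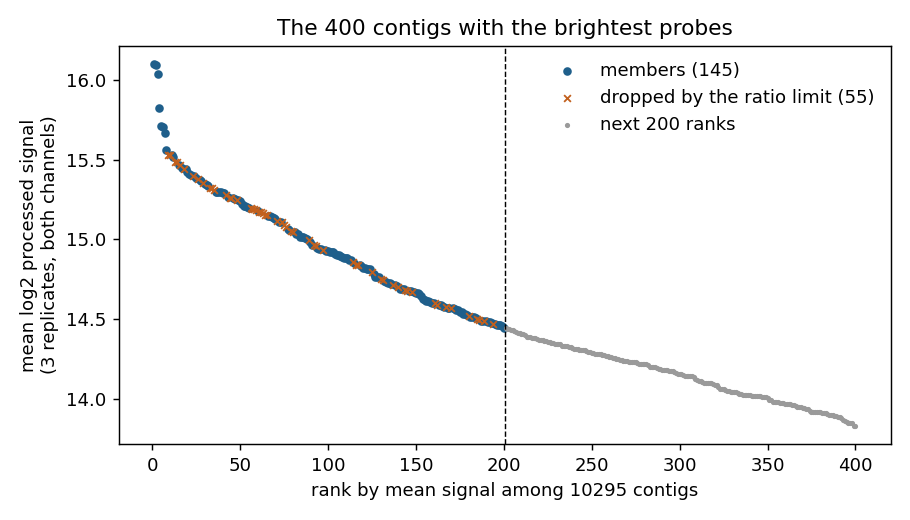
Mean log2 processed signal of the 400 brightest contigs against their rank, with members as filled circles, dropped contigs as crosses and ranks 201 to 400 in grey. The signal falls without a break at the dashed line between ranks 200 and 201.

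The signal fell from a mean log2 value of 16.10 for the brightest member, contig2, to 14.45 for the last one, contig952, which is a 3.15-fold range. The choice of 200 contigs did not mark a step. The last 3 members, contig4529, contig4057 and contig952, had mean log2 signals of 14.46, 14.46 and 14.45. The first 3 contigs outside, contig559, contig3852 and contig5732, had 14.44 each. At the ratio limit, the least departing replicate was 0.401 from 0 in the dropped contig nearest to it and 0.384 in the member nearest to it.

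Levels are given from here on as log2 signal above the 75th percentile of all contigs in the same channel. That percentile sets a common zero for channels and arrays that differed in brightness. The 3 replicates of each diet give 6 samples, and replicate 2 is the mean of its 2 arrays. Over the 145 members the median level was 4.56, 4.41 and 4.46 with nicotine in replicates 1, 2 and 3. On control diet it was 4.78, 4.37 and 4.35. The median member was thus between 20.4 and 27.6 times as bright as the contig at the 75th percentile, and the diets overlapped.

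Contig2, with 2 probes, had levels of 5.69, 5.32 and 5.73 with nicotine and 5.55, 5.97 and 5.65 on control diet in replicates 1, 2 and 3. Its means were 5.58 ± 0.23 with nicotine and 5.73 ± 0.22 on control diet (SD, n = 3). Its rank lay between 1 and 10 in the 6 samples, and the diets overlapped.

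Contig6774, contig1 and contig15416 ran close to it. Contig6774 had levels of 5.69, 5.32 and 5.73 with nicotine and 5.46, 6.08 and 5.59 on control diet, never more than 0.11 from contig2 in a sample. Contig1 had 5.43, 5.36 and 5.64 with nicotine and 5.41, 6.14 and 5.55 on control diet, within 0.26 of contig2. Contig15416 had 5.24, 5.06 and 5.28 with nicotine and 5.14, 5.62 and 5.21 on control diet, within 0.45 of contig2. All 4 contigs were highest in the control sample of replicate 2. The files hold no probe sequences, so whether probes of different contigs detect one transcript was not tested.

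Contig3543 had levels of 5.10, 5.46 and 5.09 with nicotine and 5.57, 5.60 and 5.45 on control diet, with means of 5.22 ± 0.21 and 5.54 ± 0.08 (SD, n = 3). The diets overlapped, with the nicotine sample of replicate 2 above the lowest control sample. Contig2429 had 4.75, 5.25 and 4.69 with nicotine and 5.33, 5.16 and 5.21 on control diet, and also overlapped.

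Contig3675 and contig3403 were the steadiest of the 10 brightest members. Contig3675 had levels of 5.10, 5.04 and 5.18 with nicotine and 5.46, 5.24 and 5.29 on control diet. Contig3403 had 5.16, 5.08 and 5.14 with nicotine and 5.11, 4.91 and 5.26 on control diet, with means of 5.13 ± 0.04 and 5.10 ± 0.17 (SD, n = 3). The diets did not overlap for contig3675 and overlapped for contig3403.

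Contig8 and contig4583 departed in a single sample. Contig8 had levels of 4.13, 5.25 and 5.54 with nicotine and 5.88, 5.27 and 5.51 on control diet. Contig4583 had 3.83, 5.01 and 5.54 with nicotine and 5.68, 4.94 and 5.49 on control diet. In both, the nicotine sample of replicate 1 was the lowest, and the other 5 samples lay together. Contig8 had rank 229 there and contig4583 rank 320, while each ranked 4 or better in another sample.

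**Figure D2:**
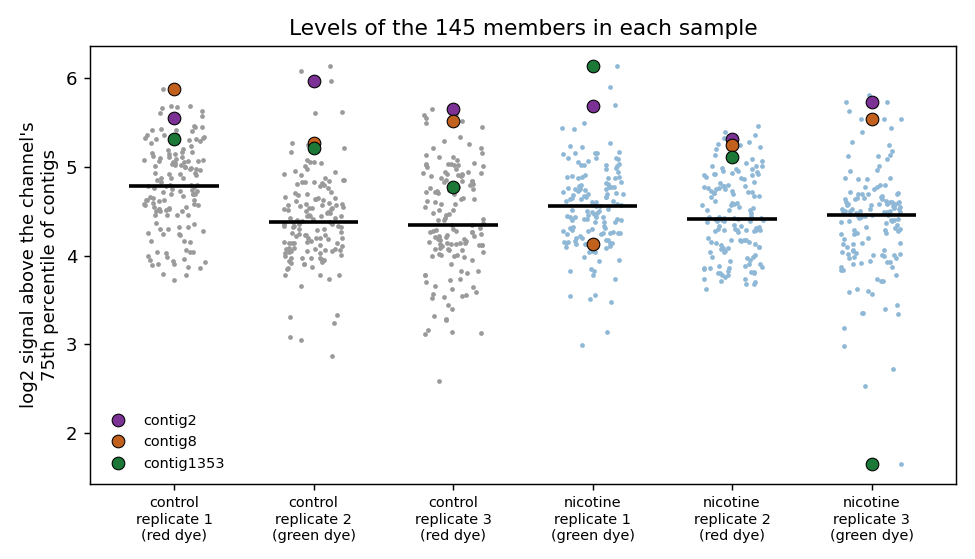
Level (log2 signal above the channel's 75th percentile of contigs) of each of the 145 members in the 6 samples, with the control samples in grey, the nicotine samples in light blue, black bars at the medians and 3 contigs marked. The medians lie between 4.35 and 4.78, while contig1353 falls to 1.65 in the nicotine sample of replicate 3.

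Membership of the brightest contigs was only partly shared between samples. Of the 145 members, between 103 and 122 were also among the 200 brightest contigs of a single sample, and 48 were so in all 6 samples. By mean level over replicates, the 200 brightest with nicotine and the 200 brightest on control diet shared 172 contigs. The lowest rank of any member was 1032, in the green nicotine channel of replicate 3. The range of a member's level over the 6 samples had a median of 0.865 and ran from 0.291 to 4.48.

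The likeness of members' levels differed between pairs of samples and was ordered by neither dye nor diet alone. Over the 145 members, levels correlated (Pearson) at 0.823, 0.468 and 0.662 between the 3 red samples (controls 1 and 3 and nicotine 2). Between the 3 green samples (nicotine 1 and 3 and control 2) they correlated at 0.330, -0.09 and 0.325. Between the 3 nicotine samples the values were 0.499, -0.09 and 0.201, and between the 3 control samples 0.502, 0.468 and 0.506. By rank (Spearman) the nicotine samples of replicates 1 and 3 correlated at 0.096, so the sign of that low value depended on the measure. The red nicotine and green control samples of replicate 2 correlated at 0.662, as high as a pair of red samples. The contigs share arrays and scans and span a narrow range of level by choice, so these values describe the samples and carry no test.

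The diets were compared by the log2 ratio of nicotine over control on each array, after normexp background correction and loess, a correction that removes the trend of the dye ratio with brightness. No member probe (0 of 249) passed an adjusted p of 0.05 in limma, where 0% of the 11205 tested probes passed, and the lowest adjusted p was 0.9998. Before adjustment 0 member probes lay under 0.05 in limma, beside 0.419% of all tested probes (0.402% higher and 0.0178% lower with nicotine). The ratio helped to choose the members, so nothing is read from these counts. The median 95% interval of a member probe reached 0.745 to either side of its mean, and 136 of 249 probes (54.6%) had an interval inside a 2-fold difference, beside 60.6% of all tested probes.

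The mean ratio over 3 replicates was above 0 for 60 members and below 0 for 85. Its median over members was -0.09, beside -0.04 over all contigs, and it lay between -0.15 and -0.0049 when 1 replicate was left out, nearest to 0 without replicate 1. It ran from -0.77 in contig1353 to 1.18 in contig1067, which was the only member at least 2-fold from 0. Both extremes came from replicate 3, where the log2 ratios were -2.98 and 3.26. Without replicate 3 neither contig had a ratio above 0.57 in size in either replicate. The ratio limit removed contigs far from 0 in all 3 replicates, so few large mean ratios among members follow in part from the choice. Among the dropped contigs the mean ratio ran from -0.62 to 1.51, the latter in contig164.

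Members with 1 sign in all 3 replicates numbered 19, with 6 higher and 13 lower with nicotine. That is 13.1% of members, beside 8.41% of all contigs (4.18% higher and 4.24% lower). With the scanner's processed signals 3 members were higher and 12 lower in all 3 replicates (10.3% in all), beside 8.85% of all contigs. With median centring 0 were higher and 1 lower (0.690% in all), beside 6.98% of all contigs, so the side of the background depended on the normalization. For the 183 contigs of ranks 201 to 400 under the same ratio limit, the share with 1 sign was 10.9% after loess. It was 16.9% with processed signals, above the members, and 7.10% with median centring. The highest mean ratios among members with 1 sign after loess were 0.54 ± 0.50 (SD, n = 3) for contig9406 and 0.25 ± 0.21 (SD, n = 3) for contig4820. Contig9406 had log2 ratios of 0.02, 0.58 and 1.02 in replicates 1, 2 and 3, and contig4820 had 0.03, 0.29 and 0.44. In replicate 1 both were next to 0, and with the scanner's processed signals they fell below it, at -0.16 and -0.23.

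Among the 13 members lower in all 3 replicates, the lowest mean ratios were -0.54 ± 0.30 (SD, n = 3) for contig1860 and -0.48 ± 0.19 (SD, n = 3) for contig2482. Contig1860 had log2 ratios of -0.25, -0.51 and -0.85, and contig2482 had -0.64, -0.54 and -0.26. The first probe of contig1860 had a 95% interval from -1.17 to 0.06 and that of contig2482 from -1.14 to 0.12, so both included 0. None of these 4 contigs passed the test (limma, adjusted p = 0.9998 for each).

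**Figure D3:**
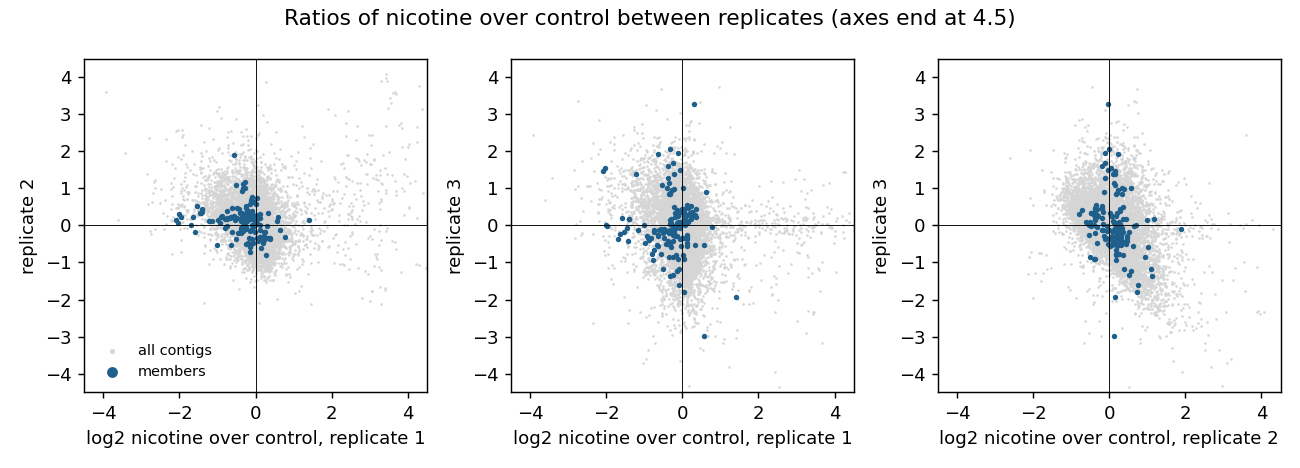
Log2 ratio of nicotine over control in one replicate against another, with all contigs in grey and the 145 members in blue (17 contigs lie outside the axes, which end at 4.5). Members spread along both axes with no common diagonal, and the members' largest ratios, 3.26 in contig1067 and -2.98 in contig1353, lie in replicate 3.

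Between replicates the members' ratios did not run together. They correlated at -0.22 between replicates 1 and 2, -0.09 between replicates 1 and 3 and -0.24 between replicates 2 and 3. Over all contigs the values were -0.07, -0.18 and -0.43, so this was no trait of the members. Replicate 2 and its repeat array correlated at 0.890 over the members and 0.965 over all contigs. The SD of a member between replicates had a median of 0.444, beside 0.440 for 183 contigs of ranks 201 to 400 chosen by the same ratio limit and 0.490 for all contigs. With median centring the medians were 1.06, 0.438 and 0.609, so the order of these sets depended on the normalization. Part of this measure was fixed by the ratio limit. By the ratios used for that limit, 44 members were closer than 0.4 to 0 in all 3 replicates, 52 lay beyond it in 1 replicate and 49 in 2 replicates.

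Seen by dye, the members' median leaned to red in 3 of 3 replicates under 3 normalizations, but not in replicate 3 of the authors' deposited table. The median log2 ratio of red over green over members was 0.22, 0.14 and 0.02 in replicates 1, 2 and 3 after loess. With the scanner's processed signals it was 0.17, 0.22 and 0.17. With median centring alone, which leaves the trend with brightness in place, it was 1.09, 0.77 and 0.51. In the authors' deposited table the members' median nicotine over control ratio was -0.21, 0.17 and 0.02. That is red higher in replicates 1 and 2 and green higher in replicate 3, so size and, in replicate 3, direction depended on the normalization. For the 183 contigs of ranks 201 to 400 the loess medians were -0.13, -0.23 and -0.34, on the other side of 0. With median centring they were 0.42, 0.17 and -0.04, so for those contigs the side depended on the normalization.

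Red was higher than green in all 3 replicates for 49 members (33.8%), beside 16.2% of all contigs, and green was higher for 21 (14.5%), beside 19.3%. In limma 0 member probes passed an adjusted p of 0.05 for red over green, where 0% of all probes passed, and 17 probes (6.83%) had an unadjusted p under 0.05, beside 8.76% of all. Of these, 16 were higher in red (6.43% of member probes, beside 5.96% of all) and 1 in green (0.402%, beside 2.79%). Nicotine RNA was green in 2 of 3 replicates, and the median diet ratio of the members was -0.22 and -0.02 in those 2 and 0.14 in the third. The part of the dye in the diet ratios of single members was not tested.

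The ratios of the 55 dropped contigs are large by the rule that dropped them. Their median red over green ratio after loess was 0.77, 1.17 and 1.19, and 38 of 55 were higher in red in all 3 replicates, while 17 were not. The brightest of them were contig3260, contig5895 and contig1079, of ranks 9, 10 and 13. By the ratios that dropped them, contig3260 had -0.60, 1.14 and -1.29 and contig1079 had -0.53, 1.26 and -1.07 for nicotine over control. Both were therefore higher in red each time. Contig5895 had 1.04, 0.50 and -1.62, which followed neither the dye nor the diet.

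**Figure D4:**
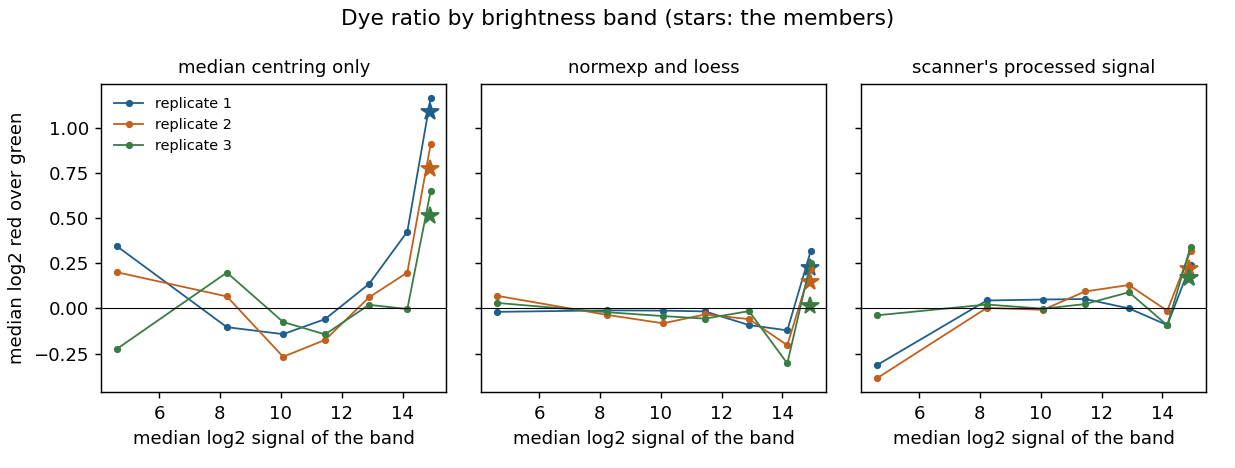
Median log2 ratio of red over green in 7 bands of brightness (x axis: median log2 processed signal of the band) for 3 normalizations, with 1 line per replicate and stars for the 145 members. The brightest band rises above 0 in each panel, most with median centring alone, where the members reach 1.09, 0.77 and 0.51.

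Large differences between paired samples of single replicates were present among the members. Paired samples differed 2-fold or more in 16 members (11.0%) in replicate 1, 5 (3.45%) in replicate 2 and 25 (17.2%) in replicate 3, beside 7.59%, 8.69% and 17.5% of all contigs. With median centring the members' counts were 82 (56.6%), 33 (22.8%) and 32 (22.1%), beside 9.32%, 11.5% and 22.7% of all contigs. The range over replicates had a median of 0.858, was at least 1 in 61 members and at least 2 in 17. Among these 17, the largest ratio fell in replicate 3 for 11, in replicate 1 for 5 and in replicate 2 for 1. The 5 in replicate 1 were all lower with nicotine, while those in replicate 3 divided into 5 higher and 6 lower.

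Contig3274 and contig3082 changed together. Contig3274 had log2 ratios of -2.04, 0.06 and 1.56, and its levels were 3.51, 4.72 and 5.54 with nicotine and 5.45, 4.79 and 4.09 on control diet. Contig3082 had log2 ratios of -2.08, 0.14 and 1.46, and its levels were 3.14, 4.16 and 5.12 with nicotine and 5.16, 4.14 and 3.73 on control diet. The ratios of the 2 contigs differed by at most 0.10 in a replicate, and in both the nicotine sample was low in replicate 1 and high in replicate 3. The pattern was not confined to members. The dropped contig3580 had log2 ratios of -2.04, 0.24 and 1.47.

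Contig1353 and contig609 were high with nicotine in replicate 1 and low in replicate 3. Contig1353 had levels of 6.13, 5.11 and 1.65 with nicotine and 5.31, 5.22 and 4.77 on control diet. Contig609 had 5.90, 4.82 and 2.53 with nicotine and 4.32, 4.72 and 4.58 on control diet. For both, the nicotine sample of replicate 1 was the highest of the 6 and that of replicate 3 the lowest, with the control samples in between. The same held for the dropped contig5895, with 6.44, 5.25 and 3.52 with nicotine and 5.37, 4.89 and 5.04 on control diet.

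Contig1067 had levels of 5.17, 4.39 and 5.82 with nicotine and 4.51, 4.49 and 2.59 on control diet. Its log2 ratios were 0.29, -0.02 and 3.26, and in replicate 3 its nicotine sample was the highest of any member and its control sample the lowest. Its 2 probes gave 3.68 and 2.84 in that replicate. The dropped contig164 had similar levels, at 5.20, 4.69 and 5.92 with nicotine and 4.55, 4.07 and 2.62 on control diet.

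For the 11 of these 17 contigs that have 2 probes, both probes are given, since a wide range of their average favours probes that agree. Their log2 ratios on an array differed by between 0.07 at most in contig2256 and 0.87 at most in contig1067. Contig1353 had -2.76 and -3.20 in replicate 3, and contig3082 had -2.08 from both probes in replicate 1. Contig3319 had 0.24 and -0.49 in replicate 1 and contig8 -0.12 and 0.51 on the first array of replicate 2, on opposite sides of 0. Both probes share the RNA, its amplification and the array.

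The members with the smallest range of ratio lay near 0 in each replicate after loess. The ratio limit favours this, since a steady contig far from 0 would have been dropped. Contig4529 had the smallest range, with log2 ratios of 0.02, 0.11 and 0.13 and a mean of 0.09 ± 0.06 (SD, n = 3). Contig3227 had -0.13, -0.15 and -0.29, and contig1947 had 0.01, 0.19 and 0.07. Contig5779 had 0.04, 0.07 and 0.25, and contig1585 had 0.03, 0.04 and 0.26. After loess all 5 lay within 0.3 of 0 in each replicate, and 29 members had a range under 0.5. By the ratios used for the limit, contig3227 had -0.40 in replicate 3 and contig1947 had 0.33 in replicate 2. Contig1947 had levels of 4.13, 4.05 and 4.03 with nicotine and 4.16, 3.87 and 3.99 on control diet, which overlapped.

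Most members had 2 probes. Of 145 members 104 (71.7%) had 2 probes, beside 76.5% of the contigs of ranks 201 to 400 and 40.2% of all contigs. The mean log2 signals of the 2 probes differed by a median of 0.114 among members, 0.263 among ranks 201 to 400 and 0.382 among all contigs with 2 probes. A difference of 2-fold or more was found for 0 of 104 members, 9 of 140 contigs of ranks 201 to 400 (6.43%) and 717 of 4139 in all (17.3%). Averaging probes before the choice makes a contig with one dim probe less likely to be a member, so this comparison carries no test. For 88 of the 104, both probes alone were as bright as rank 200.

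The probes differed most for contig1067, at 14.46 and 15.42, contig2647, at 15.64 and 14.78, and contig3765, at 14.31 and 15.15. The 2 probes of a member differed in log2 ratio by a median of 0.163, those of ranks 201 to 400 by 0.144 and those of all contigs by 0.115. With processed signals the medians were 0.106, 0.102 and 0.110, and the order of the sets was not kept. The members' probe ratios correlated at 0.860, 0.670 and 0.929 in replicates 1, 2 and 3 and at 0.639 on the repeat array.

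**Figure D5:**
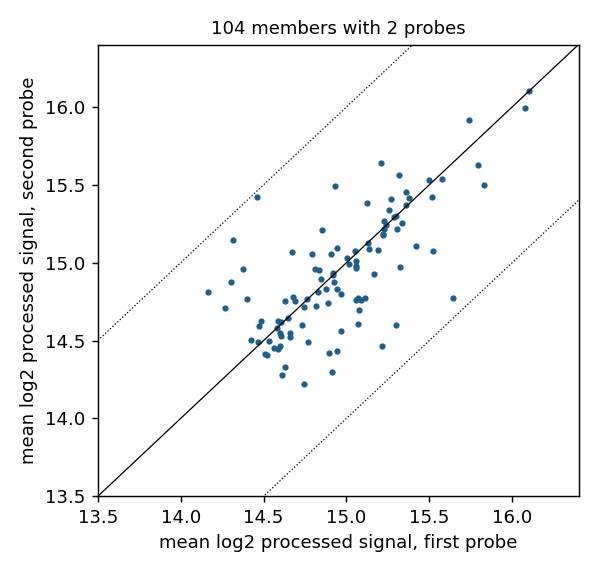
Mean log2 processed signal of the second probe against the first for the 104 members with 2 probes. The solid line marks equal signal and the dotted lines a 2-fold difference, and no member lies outside them, with contig1067 closest at 14.46 and 15.42.

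The repeat array was compared with the first array of replicate 2. The absolute difference in log2 ratio between the arrays had a median of 0.147 among members, 0.106 among ranks 201 to 400 and 0.083 among all contigs. The signed difference had a median of 0.06 among members, with the first array higher. Single members also went the other way, such as contig4583 with 0.02 on the first array and 0.56 on the repeat. With processed signals the median absolute differences were 0.133, 0.046 and 0.060, and with median centring 0.151, 0.111 and 0.172. Of these sets the members differed most after loess and with processed signals, and all contigs did with median centring. The 55 dropped contigs, also among the 200 brightest, differed by 0.151 after loess, 0.140 with processed signals and 0.112 with median centring. They lay above the members in the first 2 cases, so the larger difference was not particular to members.

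The levels of the 3 nicotine and 3 control samples did not overlap for 9 members (6.21%), all 9 lower with nicotine and 0 higher, beside 1.16% of all contigs (0.903% lower and 0.253% higher). This count compares levels across arrays and rests on the common zero. With the median of all contigs as zero it was 2, both lower, beside 0.651% of all contigs lower and 0.204% higher. With no common zero it was 5, all lower, beside 0.661% lower and 0.262% higher. With the median of the members as zero it was 11, with 7 lower and 4 higher, beside 0.427% lower and 0.534% higher. The contigs changed with the zero. Both contigs by the median of all contigs were among the 9, as were 2 of the 5 and 5 of the 11. Of the 9, 5 had a loess ratio below 0 in all 3 replicates. Among them contig1860 had levels of 4.73, 4.43 and 3.78 with nicotine and 4.97, 5.01 and 4.76 on control diet.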

How the data were processed

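RNA from nicotine-fed and control heads was hybridised to 4 two-colour arrays. The deposited scanner files hold median spot and background intensity and the software's processed intensity, per the file headers (Agilent Feature Extraction 10.1.1.1). The deposited files also hold flags, a log10 ratio of red over green and a p-value for each spot's ratio, per the file headers; the last 2 entered no test. The authors' deposited table gives log2 ratios and served as an alternative; limma is listed, with no version, per the submitters' processing notes. Its columns correlated with the red over green ratios computed here at 0.9988 to 0.9992 across non-control probes, with slopes between 0.998 and 1.001 and medians between -0.016 and 0.004, which settles scale, centring and channel order but not which RNA carried which dye. That rests on the labels. All arrays shared 1 slide and 1 scan time.

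Members were chosen from log2 processed signals, with ratios centred on each array's median over contigs. Ratios were computed in limma 3.58.1 (R 4.3.3) with normexp (offset 50) and loess with control spots at weight 0, and turned to nicotine over control. The repeat array was averaged with replicate 2 (n = 3). Of 14628 non-control probes, 3408 were too dim and 15 were outliers, and 11205 were tested with an intercept-only limma fit, two-sided, with Benjamini-Hochberg adjustment at 0.05. The fit was run on simulated ratios whose spread between replicates was set below that of these data. That run therefore does not show what the fit can detect here. The number of arrays limits the precision. Members, lists and tests were chosen with earlier results of these data known. Contigs were named as the 10 brightest members, 3 on either side of rank 200, the 3 brightest dropped, 2 in each direction by mean ratio among those with 1 sign, 5 with the largest and 5 with the smallest ratio range, and 3 by probe difference. Contig2256, contig3319, contig164 and contig3580 were named after their values were seen.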

Additional observations from a re-analysis of the deposited data

How the results depend on the processing

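The choice of members gave 65 contigs from the top 100 and 328 from the top 400. Other signals, channels, probe rules and ratio limits gave between 135 and 200, of which between 123 and 145 were members as reported, and leaving out 1 replicate gave 125 to 137. Nicotine over control had 0 member probes past the adjusted threshold in limma in all 14 alternatives. Member probes with unadjusted p under 0.05 in limma numbered 7 of 249 when the repeat array counted as a sample of its own (4 arrays, an inflated n). Without 1 replicate they numbered 1 to 2. For these alternatives no share over all tested probes is given, so the counts cannot be set against a background. With median centring the members' median ratio was -0.28, the median SD 1.06 and the count with 1 sign 1. The count with 1 sign in both remaining replicates was 44 to 89 of 145 members without 1 replicate, where fewer samples must share it. No share over all contigs is given beside it, so nothing is read from that count. The difference between 2 probes was 0.106 with processed signals. Red over green had 0 member probes past the adjusted threshold in each alternative, and a median of 0.75 with median centring. Its member probes with unadjusted p under 0.05 in limma numbered 142 of 249 with median centring and 2 to 20 without 1 replicate. Shares over all tested probes are not given for these settings, so nothing about the members is read from these counts. Of the levels, the counts without overlap were 2 and 5 with other zeros, chosen after seeing the data. The 4 contigs named for their ratio kept their direction in all 14 alternatives, though contig4820 fell to 0.00054 with median centring. They were chosen for 1 sign in all 3 replicates, so leaving out 1 replicate could not turn their direction. Other alternatives use the same or closely related ratios, so nothing is read from the kept direction. For none of these shifts was the cause tested. No slide block could be fitted with 1 slide, and since both diets of a replicate were hybridised together, each ratio is already a paired value.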
